A study of Mus musculus with 9 samples.

Results

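The 10 genes described here encode the MHC class I antigen presentation machinery of the mouse. They were H2-K1, H2-D1, H2-Q6, H2-Q7, H2-T22 and H2-T23, which encode class I heavy chains, B2m, the shared light chain, Tap1 and Tap2, the subunits of the peptide transporter, and Nlrc5, the transactivator of class I genes. They were chosen by gene symbol, and all 10 were found among the 24594 genes of the expression table. Bulk RNA sequencing was performed on 9 libraries of OT-II T cell receptor transgenic thymocytes sorted as CD4+ CD8- CD69+ Valpha2+ Vbeta5+ cells, a semimature CD4 single-positive stage. The cells had developed for 4.7 weeks in lethally irradiated hosts given marrow of OTII-DKO, OTII-ctl and non-transgenic wild-type donors at a ratio of 1:1:3. OTII-ctl donors (B6.Cg-Tg(TcraTcrb)425Cbn/J crossed to BoyJ, F1) were Nr4a1+/+ Nr4a3+/+, and OTII-DKO donors (C57BL/6) were Nr4a1-/- Nr4a3-/-. Both donors carried the OT-II receptor, which recognizes an ovalbumin peptide on MHC class II. WT hosts, without ovalbumin, are given as BoyJ in the labels, while the methods of the study describe WT mice bred as F1 animals from the cross of the RIPmOVA line with BoyJ. RIPmOVA hosts were F1 mice of BoyJ and a C57BL/6 line with the transgene Tg(Ins2-TFRC/OVA)296Wehi, in which the rat insulin promoter drives membrane ovalbumin in pancreatic beta cells and in medullary thymic epithelium. OT-II cells of WT hosts had n = 2 libraries, DKO cells of WT hosts n = 3, OT-II cells of RIPmOVA hosts n = 2 and DKO cells of RIPmOVA hosts n = 2. An OT-II and a DKO library of the same host and number came from the same chimera.

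MHC class I molecules are carried by nearly all nucleated cells, thymocytes included, and display peptides of cytosolic proteins to CD8 T cells and natural killer cells. Proteasomes cut the peptides, the TAP transporter moves them into the endoplasmic reticulum, and the peptide-loading complex fits them onto a heavy chain held by beta-2-microglobulin. The classical heavy chains H2-K1 and H2-D1 are highly polymorphic. H2-Q6 and H2-Q7 belong to the Qa-2 group of non-classical heavy chains, H2-T23 encodes Qa-1, which presents signal peptides to the NKG2A receptor, and H2-T22 is recognized by a subset of gamma-delta T cells. Interferons, NF-kB and NLRC5 act on the promoters of these genes.

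Of the 10 genes, 8 lie on chromosome 17 in the MHC (GRCm38). H2-K1 spans chr17:33996017-34000347 on the minus strand, Tap1 chr17:34187553-34197225 and Tap2 chr17:34203527-34216321 on the plus strand. H2-D1 spans chr17:35262730-35267499, H2-Q6 chr17:35424850-35430055 and H2-Q7 chr17:35439155-35443773, all on the plus strand. H2-T23 (chr17:36029773-36032855) and H2-T22 (chr17:36037128-36042747) lie on the minus strand. B2m is at chr2:122147686-122153083 and Nlrc5 at chr8:94434356-94527272, both on the plus strand. All 10 are annotated as protein-coding. Some overlap other genes: A930015D03Rik runs opposite to H2-T22 and H2-T23, Psmb9 opposite to Tap1, Gm20496 and Gm15821 opposite to Tap2, and 9330175E14Rik opposite to Nlrc5. The use of strand in counting was not given in the sources used here, so the reads of these partners cannot be told apart where exons overlap.

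RefSeq promoter sequences (GRCm38.p6) were matched by symbol for 8 of the 10 genes, all but Tap2 and Nlrc5. The 250 bases upstream of the RefSeq start are shown for H2-Q6 (chr17:35424600-35424849, plus strand), the member whose level changed most. They are also shown for H2-Q7 (chr17:35438905-35439154, plus strand), the member whose upstream sequence was most similar to that of H2-Q6. H2-K1 (chr17:34000348-34000597, minus strand) stands for the classical heavy chains and B2m (chr2:122147437-122147686, plus strand) for the light chain. Capitals mark matches on either strand to GGGATTCCC (an NF-kB motif) and GAANNGAAA (an interferon response-like motif). They also mark TGACG (the core of the X2 box) and CCAAT (the letters of the Y box, wherever they occur).
H2-Q6: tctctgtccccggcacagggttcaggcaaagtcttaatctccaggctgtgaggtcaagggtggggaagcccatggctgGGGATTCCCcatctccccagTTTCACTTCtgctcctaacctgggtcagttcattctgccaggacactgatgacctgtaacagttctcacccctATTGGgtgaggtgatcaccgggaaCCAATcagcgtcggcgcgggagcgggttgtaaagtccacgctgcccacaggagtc
H2-Q7: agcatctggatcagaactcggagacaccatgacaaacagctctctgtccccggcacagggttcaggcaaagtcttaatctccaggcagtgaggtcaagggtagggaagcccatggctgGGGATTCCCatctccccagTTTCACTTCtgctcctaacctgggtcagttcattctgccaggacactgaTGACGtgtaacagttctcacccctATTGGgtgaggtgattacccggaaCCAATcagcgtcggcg
H2-K1: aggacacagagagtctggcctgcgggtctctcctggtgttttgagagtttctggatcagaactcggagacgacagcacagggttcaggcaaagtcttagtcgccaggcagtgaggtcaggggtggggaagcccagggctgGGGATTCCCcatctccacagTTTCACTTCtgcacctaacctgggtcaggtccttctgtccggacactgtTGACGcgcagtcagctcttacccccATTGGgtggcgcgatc
B2m: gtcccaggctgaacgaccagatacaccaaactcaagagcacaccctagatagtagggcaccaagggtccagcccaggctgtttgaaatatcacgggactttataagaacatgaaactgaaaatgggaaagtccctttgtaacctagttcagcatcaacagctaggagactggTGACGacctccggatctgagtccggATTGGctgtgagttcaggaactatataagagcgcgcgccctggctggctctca

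GGGATTCCC was found upstream of H2-K1, H2-D1, H2-Q6 and H2-Q7 and in 0.311% of 27025 windows of the same length across the genome. GAANNGAAA, in exactly these letters, was found in the same 4 genes and in 6.34% of all windows. On one strand or the other, the B2m, H2-T22 and H2-T23 windows hold GAA and GAAA with a longer gap, which this search did not count. Windows without a match are therefore not shown to lack an interferon response-like motif. TGACG was found in 6 of the 8, H2-K1, H2-D1, H2-Q7, H2-T22, B2m and Tap1, and in 17.9% of all windows. H2-Q6 and H2-T23 had no match to it. CCAAT was found in all 8 and in 34.5% of all windows. The position of a match was not weighed, so a CCAAT match need not be a Y box. In Tap1 it lies at -222, upstream of the TGACG match at -86. The letters AAAGGTCA, bound by NR4A receptors as monomers, matched none of the 8 windows and 1.31% of all windows. No matches in the 8 windows overlapped one another. The H2-Q6 and H2-Q7 windows were 97.6% identical over 210 aligned bases, with 5 mismatches. H2-K1 and H2-D1 were 87.4% identical over 190 aligned bases. These matches describe the sequence and no binding was measured.

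**Figure D1:**
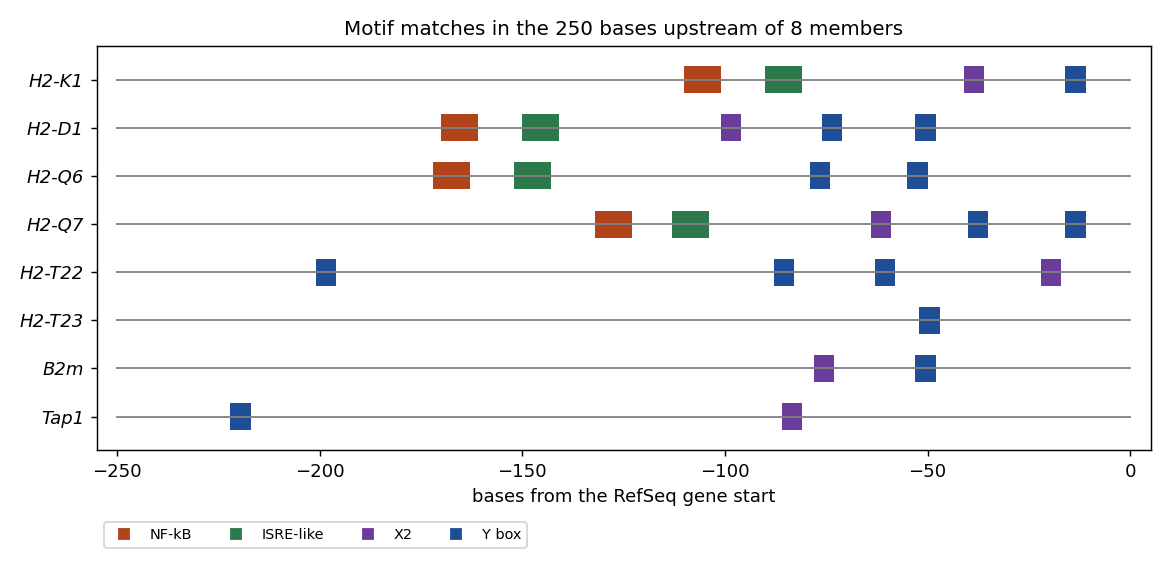
Positions of motif matches in the 250 bases upstream of the RefSeq start of 8 members (x axis, bases from the start; 1 line per gene; boxes, matches coloured by motif). The NF-kB and interferon response-like matches sit together in H2-K1, H2-D1, H2-Q6 and H2-Q7, and H2-Q6 has no X2 match. Only exact letters were searched, so a window without a box can hold another form of a motif. Boxes labelled Y box are all CCAAT matches on either strand.

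Depth recovered from the table was 15520000 to 25050000 reads per library. The sorted identity was checked on marker genes: the 7 T cell markers summed to 1457 to 1746 RPKM (reads per kilobase of exon, scaled to the exonic reads of the library) and Cd4 was high in every library. Of the 3 semimature markers, Cd24a and Cd69 differed between hosts. Cd24a was 19.7 to 32.7 RPKM in the WT and 46.8 to 75.7 RPKM in the RIPmOVA libraries, and was higher in RIPmOVA hosts by 1.23 ± 0.22 (SE, limma adjusted p = 0.0280) in OT-II and 1.11 ± 0.20 (SE, limma adjusted p = 0.0188) in DKO-labelled cells. Cd69, an activation marker used in the sort, was higher by 0.47 ± 0.08 (SE, limma adjusted p = 0.0224) and 0.78 ± 0.07 (SE, limma adjusted p = 0.000772). With the block on replicate number, Cd69 passed in DKO-labelled cells (adjusted p = 0.0102) and the other 3 of these differences did not, with adjusted p values of 0.0598 to 0.0915. The remaining semimature marker, Ccr7, went the other way and passed no test. Its log2 fold change between hosts was -0.29 ± 0.10 (SE, limma adjusted p = 0.219) in OT-II and -0.30 ± 0.09 (SE, limma adjusted p = 0.136) in DKO-labelled cells. The part of these markers in the host differences of the members was not tested. Cd8b1 was 54.5 to 96.4 RPKM although the sort gated against CD8, while Cd8a was 1.76 to 7.60 RPKM. The targeted genes did not check the genotype: Nr4a1 was 60.7 to 260 RPKM in OT-II libraries and 60.1 to 282 RPKM in DKO libraries, and Nr4a3 was 0.181 to 5.66 and 0.188 to 16.5 RPKM. The libraries are therefore called DKO-labelled below. Summed RPKM of 1461 sensory receptor genes, which thymocytes are not known to use and which serve here as a measure of background reads, was 73.2 to 633 per library, with 428 in OT-II WT replicate 1, 440 in DKO-labelled WT replicate 2, and 473 and 633 in the DKO-labelled RIPmOVA libraries. The labels name a separate chimera for each replicate number of a host.

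B2m was the most abundant gene of the whole table, at a mean of 1356 RPKM over the 9 libraries. H2-D1 ranked 5 among all genes at 650 RPKM, and H2-K1 ranked 99 at 155 RPKM. The deposited exon length of H2-K1 (10612 bases) is the sum of all its annotated distinct exons, overlapping ones counted repeatedly, while the union of its exons is 2938 bases. The same was true of H2-T22, H2-T23, Tap1 and Tap2, and 81.0% of all genes were within 5% of that sum. Scaled to the exon union, mean levels ran from B2m (1356) through H2-D1 (733), H2-K1 (561), H2-T23 (223), Tap2 (147), Tap1 (84.9), H2-T22 (70.8), Nlrc5 (44.4) and H2-Q6 (13.4) to H2-Q7 (2.75), all in RPKM by exon union. Over the 9 libraries the ranges of H2-D1 (664 to 916) and H2-K1 (451 to 715) overlapped, as did those of Tap1 (71.4 to 106), H2-T22 (56.5 to 90.6), Nlrc5 (26.2 to 62.7), H2-Q6 (1.76 to 46.0) and H2-Q7 (1.65 to 4.46), each with its neighbour in that order. B2m, H2-T23 and Tap2 overlapped no neighbour. The order of genes depends on the length used, since the deposited length was 3.61 times the exon union for H2-K1, 1.0 for B2m and 0.542 for H2-Q7. Ratios of the RPKM of a gene between libraries do not, because all its values are divided by the same length. The tests below add 0.5 to each RPKM after a filter at RPKM 1, so for low genes their values depend on the length. Sums over several genes, used below, do depend on the length, which sets the weight of each gene. All values below are the deposited RPKM.

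H2-Q6 was the member that changed with the host. In OT-II cells it was 4.70 and 2.60 RPKM in WT hosts and 13.8 and 25.9 RPKM in RIPmOVA hosts. In DKO-labelled cells it was 3.09, 2.69 and 1.76 RPKM in WT hosts and 46.02 and 20.02 RPKM in RIPmOVA hosts. All 4 RIPmOVA libraries were above all 5 WT libraries, and the OT-II and DKO-labelled ranges overlapped in RIPmOVA hosts. The group means were 3.65 ± 1.48 (SD, n = 2) and 19.8 ± 8.61 (SD, n = 2) RPKM in OT-II cells, a 5.44-fold ratio, and 2.51 ± 0.681 (SD, n = 3) and 33.0 ± 18.4 (SD, n = 2) RPKM in DKO-labelled cells, a 13.1-fold ratio. On the log2(RPKM + 0.5) scale, which understates the change of low genes, H2-Q6 rose by 3.39 ± 0.39 (SE) in DKO-labelled cells (limma adjusted p = 0.0025) and by 2.27 ± 0.43 (SE) in OT-II cells (limma adjusted p = 0.0335). These values rest on 92 to 1964 reads per library. In OT-II cells the call was lost in 14 of the 21 other settings and in 7 of the 9 fits that left out 1 library, where the adjusted p reached 0.202 without OT-II RIPmOVA replicate 2. In DKO-labelled cells it was retained in all 21, with an adjusted p of 0.0014 to 0.0379. With a block on the replicate number across hosts, the adjusted p rose to 0.0836 for OT-II cells and to 0.0252 for DKO-labelled ones. Same-numbered libraries of the hosts came from different animals by the labels, but their deviations from the group means correlated. The correlation was 0.228 in OT-II cells and 0.102 and 0.231 in the DKO-labelled pairs. As each OT-II group had n = 2, its deviations mirror each other, so both OT-II pairs must give the same value. In bulk RNA, a change in the fraction of cells with the transcript and a change in transcript per cell cannot be told apart.

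Among all genes tested, 1.23% were called in the OT-II host comparison and 1.68% in the DKO-labelled host comparison, where a gene was called if its limma adjusted p did not exceed 0.05 and its log2 fold change was 1 or more in size. On adjusted p alone the shares were 1.89% and 3.35%. Among the members, 1 of 10, H2-Q6, was called in each. The median log2 fold change over the 10 members was -0.23 in OT-II cells and 0.02 in DKO-labelled cells, beside -0.02 and 0.03 over all 11569 genes tested. Of the other 9 members, log2 fold changes between hosts ran from -0.56 to 0.27 in OT-II cells and from -0.40 to 0.62 in DKO-labelled cells, and none passed the test. A p above the threshold does not show that a level stayed the same. Leaving out OT-II WT replicate 1, which was the highest library for H2-K1, H2-D1, H2-Q7, H2-T22 and B2m, moved the OT-II median from -0.23 to -0.04, and leaving out OT-II WT replicate 2 moved it to -0.44.

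**Figure D2:**
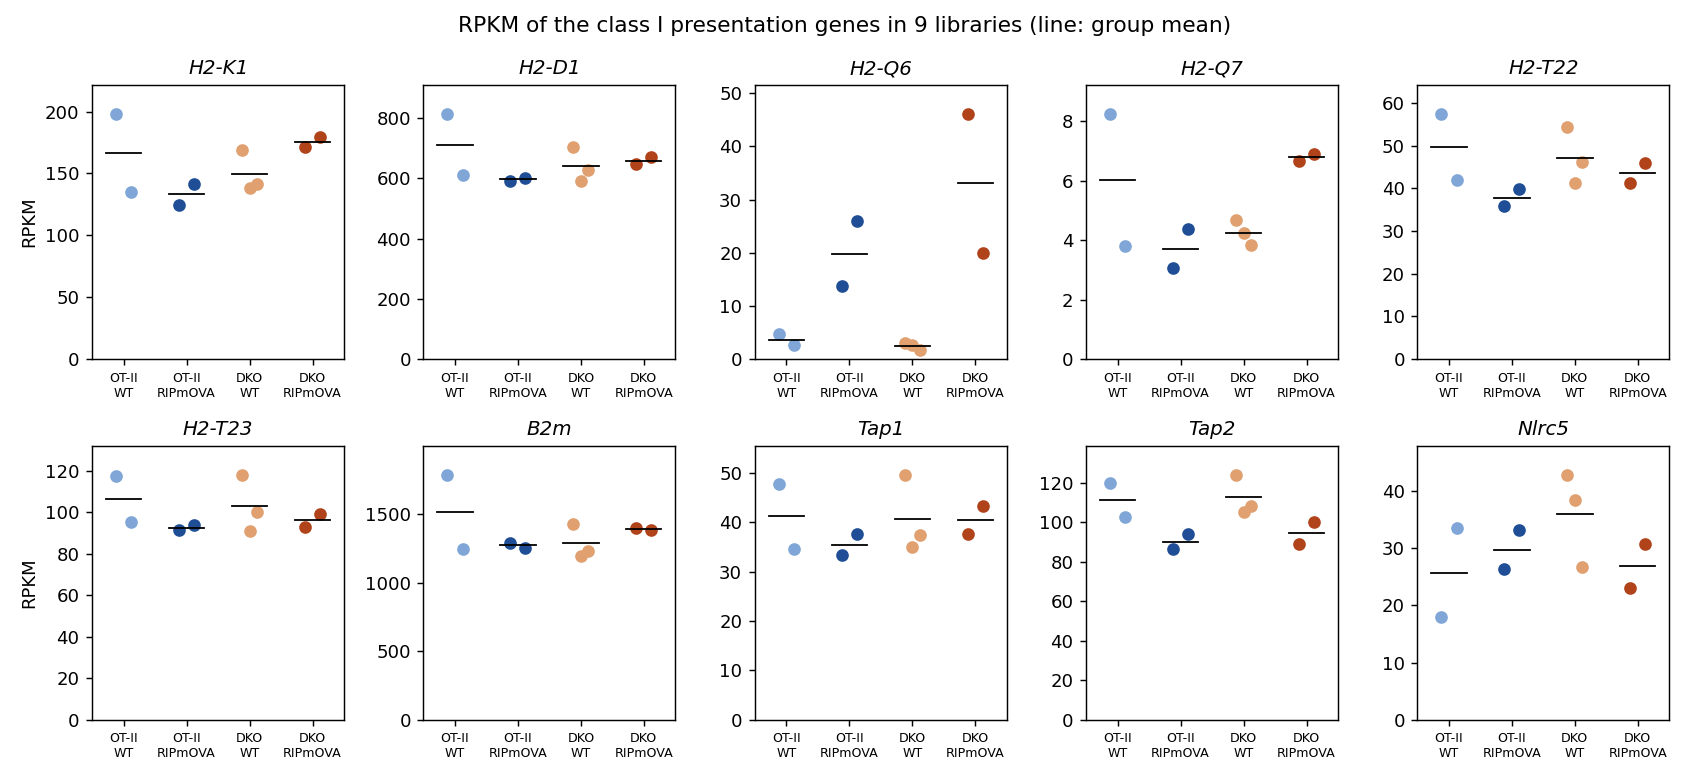
Deposited RPKM of each member (y axis, linear from 0, scaled per gene) in the 4 groups of genotype and host (x axis); points are libraries and lines are group means. H2-Q6 lies between 1.76 and 4.70 in the WT libraries and between 13.8 and 46.0 in the RIPmOVA libraries, and no other member passed the test between hosts.

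H2-Q7, whose transcript and promoter resemble those of H2-Q6, was 8.23 and 3.81 RPKM in OT-II cells of WT hosts and 3.04 and 4.38 RPKM in those of RIPmOVA hosts. In DKO-labelled cells it was 4.67, 4.23 and 3.83 RPKM in WT hosts and 6.66 and 6.89 RPKM in RIPmOVA hosts. The OT-II host groups overlapped, and the DKO-labelled host groups did not. The log2 fold change between hosts was -0.56 ± 0.29 (SE, adjusted p = 0.440) in OT-II cells and 0.62 ± 0.26 (SE, adjusted p = 0.269) in DKO-labelled cells. H2-Q7 was also 0.81 ± 0.29 (SE) apart between genotypes in RIPmOVA hosts (adjusted p = 0.163), with the DKO-labelled mean higher. The 3 libraries highest for H2-Q7 were OT-II WT replicate 1 and the 2 DKO-labelled RIPmOVA libraries, which were among the 4 with the highest sensory receptor sums. With that sum as a covariate, the genotype difference of H2-Q7 was 0.52 on the log2 scale (adjusted p = 0.794). The part of background reads in it was not tested further.

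Reads from near-identical class I genes can be assigned to the wrong gene. Of the 100-base windows of H2-Q6 transcripts, 13% were found in a transcript of another gene, most often H2-Q7 with 166 of 259 shared windows. For H2-Q7 the share was 12%, most often with H2-Q10 (270 windows) and H2-Q5 (170 windows). The part of such sharing in the H2-Q7 differences was not tested. The shares were 31.5% for H2-T22 (905 windows shared with A930015D03Rik and 261 with H2-T10), 3.59% for H2-D1 and 0.957% for H2-K1. None of the windows of B2m or Nlrc5 were shared. H2-Q6 and H2-Q7 summed as 1 feature rose between hosts by 2.41 ± 0.36 (SE, adjusted p = 0.00887) in DKO-labelled cells. In OT-II cells the sum differed by 1.26 ± 0.40 (SE, adjusted p = 0.177). H2-T10 and H2-T22 summed differed by -0.35 ± 0.16 (SE, adjusted p = 0.361) in OT-II cells and by -0.13 ± 0.15 (SE, adjusted p = 0.654) in DKO-labelled cells. The 24 class I heavy chain genes of the table summed as 1 feature differed by -0.25 ± 0.15 (SE) in OT-II cells and 0.11 ± 0.13 (SE) in DKO-labelled cells, and neither passed the test (adjusted p = 0.508 and 0.682).

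The classical heavy chain H2-K1 was 198 and 135 RPKM in OT-II cells of WT hosts and 125 and 141 RPKM in those of RIPmOVA hosts. In DKO-labelled cells it was 169, 139 and 141 RPKM in WT hosts and 171 and 179 RPKM in RIPmOVA hosts. The host groups overlapped in OT-II cells and did not in DKO-labelled cells, with log2 fold changes of -0.30 ± 0.17 (SE, adjusted p = 0.487) in OT-II cells and 0.23 ± 0.16 (SE, adjusted p = 0.444) in DKO-labelled cells. H2-D1, the other classical heavy chain, was 812 and 610 RPKM in OT-II WT libraries, 591 and 602 in OT-II RIPmOVA libraries, 703, 589 and 629 in DKO-labelled WT libraries and 646 and 670 in DKO-labelled RIPmOVA libraries. The H2-D1 host groups overlapped in DKO-labelled cells and did not in OT-II cells. OT-II WT replicate 1 stood above the other 8 libraries for both genes. The H2-D1 log2 fold change between hosts was -0.24 ± 0.14 (SE, adjusted p = 0.480) in OT-II cells and 0.04 ± 0.12 (SE, adjusted p = 0.884) in DKO-labelled cells.

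The non-classical heavy chains of the T region were called in no comparison. H2-T22 was 57.4 and 41.9 RPKM in OT-II WT libraries, 35.8 and 39.9 in OT-II RIPmOVA libraries, 54.3, 41.2 and 46.1 in DKO-labelled WT libraries and 41.2 and 45.9 in DKO-labelled RIPmOVA libraries. The OT-II RIPmOVA libraries were the 2 lowest, and the DKO-labelled host groups overlapped. The log2 fold change between hosts was -0.37 ± 0.17 (SE, adjusted p = 0.361) in OT-II cells and -0.11 ± 0.15 (SE, adjusted p = 0.733) in DKO-labelled cells. H2-T23, which encodes Qa-1, was 118 and 95.2 RPKM in OT-II WT libraries, 91.6 and 93.8 in OT-II RIPmOVA libraries, 118, 91.2 and 100.1 in DKO-labelled WT libraries and 93.2 and 99.2 in DKO-labelled RIPmOVA libraries. Its highest library was 1.29 times its lowest, the narrowest range of the 10 members, and its host groups overlapped in DKO-labelled cells and did not in OT-II cells. The log2 fold change was -0.19 ± 0.14 (SE, adjusted p = 0.584) in OT-II cells and -0.09 ± 0.12 (SE, adjusted p = 0.719) in DKO-labelled cells.

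B2m, the light chain that all these heavy chains need to reach the cell surface, was 1783 and 1243 RPKM in OT-II WT libraries, 1286 and 1254 in OT-II RIPmOVA libraries, 1426, 1196 and 1231 in DKO-labelled WT libraries and 1397 and 1387 in DKO-labelled RIPmOVA libraries. The host groups overlapped in both genotypes. B2m differed between hosts by -0.23 ± 0.16 (SE, adjusted p = 0.564) in OT-II cells and by 0.12 ± 0.14 (SE, adjusted p = 0.677) in DKO-labelled cells.

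The peptide transporter was measured through both subunits. Tap1 was 47.8 and 34.6 RPKM in OT-II WT libraries, 33.3 and 37.7 in OT-II RIPmOVA libraries, 49.6, 35.0 and 37.5 in DKO-labelled WT libraries and 37.6 and 43.4 in DKO-labelled RIPmOVA libraries. The host groups of Tap1 overlapped in both genotypes, with log2 fold changes of -0.20 ± 0.19 (SE, adjusted p = 0.696) and 0.01 ± 0.17 (SE, adjusted p = 0.989). Tap2 was 120 and 103 RPKM in OT-II WT libraries, 86.4 and 94.1 in OT-II RIPmOVA libraries, 124, 105 and 109 in DKO-labelled WT libraries and 88.9 and 100.4 in DKO-labelled RIPmOVA libraries. For Tap2, every RIPmOVA library lay below every WT library. The log2 fold change was -0.30 ± 0.12 (SE, adjusted p = 0.283) in OT-II cells and -0.25 ± 0.11 (SE, adjusted p = 0.274) in DKO-labelled cells, so neither difference passed the test.

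Nlrc5, the transactivator that acts on class I promoters, had a wider spread within groups than most members. It was 17.9 and 33.5 RPKM in OT-II WT libraries, 26.4 and 33.2 in OT-II RIPmOVA libraries, 42.8, 38.5 and 26.8 in DKO-labelled WT libraries and 23.04 and 30.76 in DKO-labelled RIPmOVA libraries. Host groups overlapped in both genotypes. OT-II WT replicate 1, the highest library for several heavy chains and for B2m, was the lowest for Nlrc5. The log2 fold change between hosts was 0.27 ± 0.30 (SE, adjusted p = 0.745) in OT-II cells and -0.40 ± 0.28 (SE, adjusted p = 0.453) in DKO-labelled cells. Over the 9 libraries, Pearson's r of log2 values was 0.96 between H2-D1 and B2m, 0.95 between H2-K1 and H2-Q7 and 0.95 between H2-T22 and H2-T23. It was -0.62 between Nlrc5 and B2m and 0.33 between H2-Q6 and H2-Q7. These correlations describe libraries that share depth, groups and background reads.

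Between genotypes, no member was called. In RIPmOVA hosts 1.07% of all genes and 0 of 10 members were called, 2 of the members (H2-K1 and H2-Q7) having an unadjusted p under 0.05, as 21.4% of all genes did. In WT hosts 0.0605% of all genes (0.0692% on adjusted p alone) and 0 of 10 members were called, none with an unadjusted p under 0.05, as 7.89% of all genes had. H2-Q6 differed by 0.67 ± 0.43 (SE, adjusted p = 0.391) in RIPmOVA hosts and by -0.44 ± 0.39 (SE, adjusted p = 0.844) in WT hosts, DKO-labelled minus OT-II. Leaving out a library of the groups compared moved the first to 0.08 and 1.26 (DKO-labelled RIPmOVA replicates 1 and 2), the lowest and highest values, and the second to -0.07 and -0.81 (OT-II WT replicates 1 and 2). In RIPmOVA hosts, H2-K1 differed by 0.40 ± 0.17 (SE, adjusted p = 0.223), and in WT hosts Nlrc5 differed by 0.52 ± 0.28 (SE, adjusted p = 0.707). The host effect in DKO-labelled cells minus that in OT-II cells was 1.11 ± 0.58 (SE, adjusted p = 0.552) for H2-Q6 and 1.18 ± 0.39 (SE, adjusted p = 0.462) for H2-Q7. The interaction called 0.0173% of all genes and 0 of 10 members, 2 of them (H2-K1 and H2-Q7) with an unadjusted p under 0.05, as 9.32% of all genes had. A voom fit to the recovered reads also called 0 members in these 3 comparisons. The larger H2-Q6 host difference in DKO-labelled cells was thus not shown to differ from that in OT-II cells, and leaving out 1 library moved the interaction of H2-Q6 between 0.52 (without DKO-labelled RIPmOVA replicate 1) and 1.70 (without replicate 2). Without OT-II WT replicate 2, H2-Q7 passed the test in the interaction at 1.69 (adjusted p = 0.0315) and between hosts in OT-II cells at -1.07 (adjusted p = 0.0285). These comparisons share groups of libraries and are not independent.

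**Figure D3:**
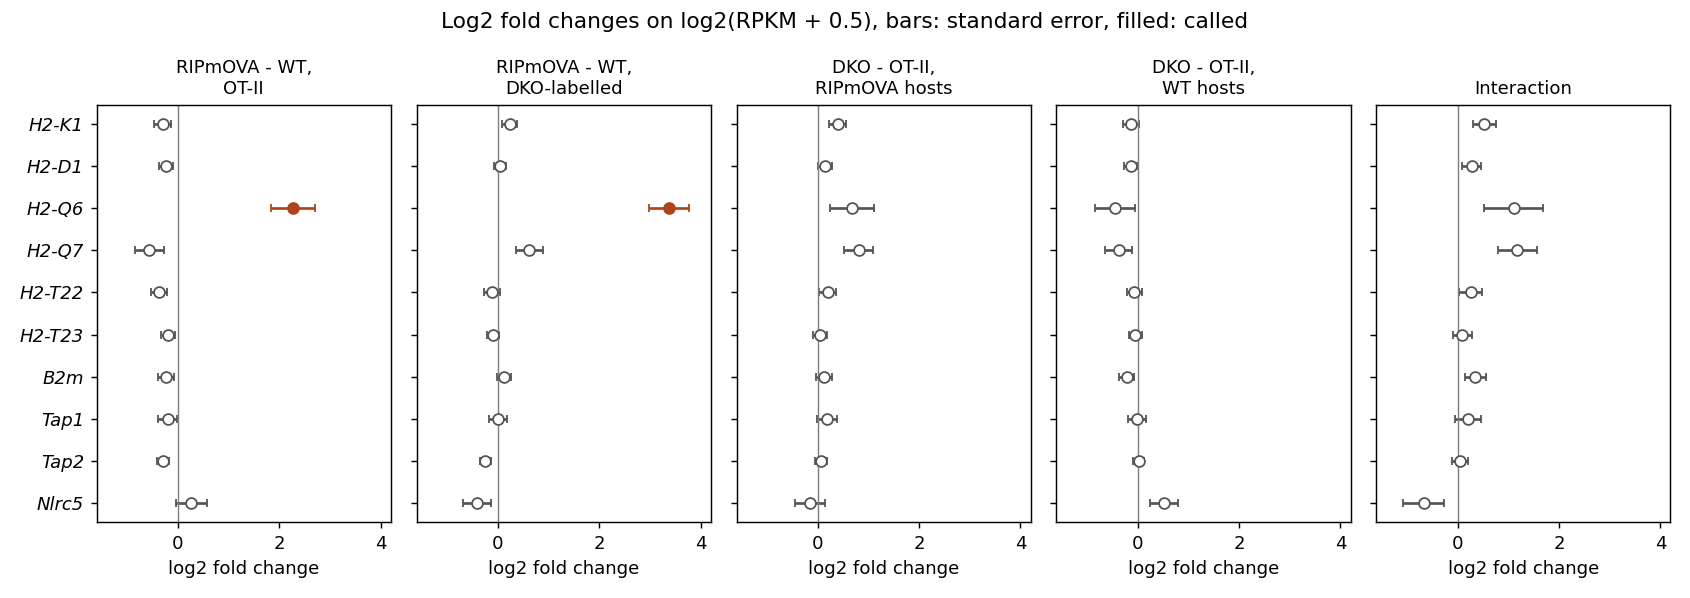
Log2 fold changes of the 10 members (x axis, on log2(RPKM + 0.5)) in the 4 pairwise comparisons and the interaction; points are estimates, bars are standard errors and filled points are called. H2-Q6 is the only called gene, at 2.27 and 3.39 between hosts.

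Other class I and class I-like genes were read from a list of 24 genes, of which the table held 23 and 13 were high enough to test. Between hosts, 1 of the 13 was called in DKO-labelled cells and none in OT-II cells, beside 1.68% and 1.23% of all genes. The median log2 fold changes of the 13 were 0.00 and -0.19 in the same order. H2-Q5, a Q-region heavy chain gene, was 20.8 and 10.7 RPKM in OT-II WT libraries, 15.1 and 24.9 in OT-II RIPmOVA libraries, 14.0, 12.2 and 10.4 in DKO-labelled WT libraries and 39.8 and 29.7 in DKO-labelled RIPmOVA libraries. It rose by 1.47 ± 0.29 (SE, adjusted p = 0.0274) in DKO-labelled cells and differed by 0.36 ± 0.32 (SE, adjusted p = 0.665) in OT-II cells. The host groups of H2-Q5 overlapped in OT-II cells and did not in DKO-labelled cells. On adjusted p alone, Cd1d2, a class I-like gene, rose by 0.99 ± 0.19 (SE, adjusted p = 0.0338) in OT-II cells. H2-Q2 fell by 0.84 ± 0.18 (SE, adjusted p = 0.0496) in DKO-labelled relative to OT-II libraries of RIPmOVA hosts. With the block on replicate number H2-Q5 and Cd1d2 had adjusted p values of 0.141 and 0.0513, and with the block on chimera H2-Q2 had 0.0633. H2-Q5 also missed the threshold with the sensory receptor sum as a covariate, at 1.37 (adjusted p = 0.215), as did H2-Q2 at -0.60 (adjusted p = 0.507). The 3 most abundant genes of this list passed no test: H2-M3, which presents formylated peptides, averaged 67.1 RPKM, the Qa-2 gene H2-Q9 47.6 RPKM and Cd1d1 41.9 RPKM. H2-Q9 had host log2 fold changes of -0.56 ± 0.27 (SE, adjusted p = 0.394) in OT-II cells and 0.79 ± 0.25 (SE, adjusted p = 0.135) in DKO-labelled cells. H2-Q8 was listed at 0 in all 9 libraries.

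**Figure D4:**
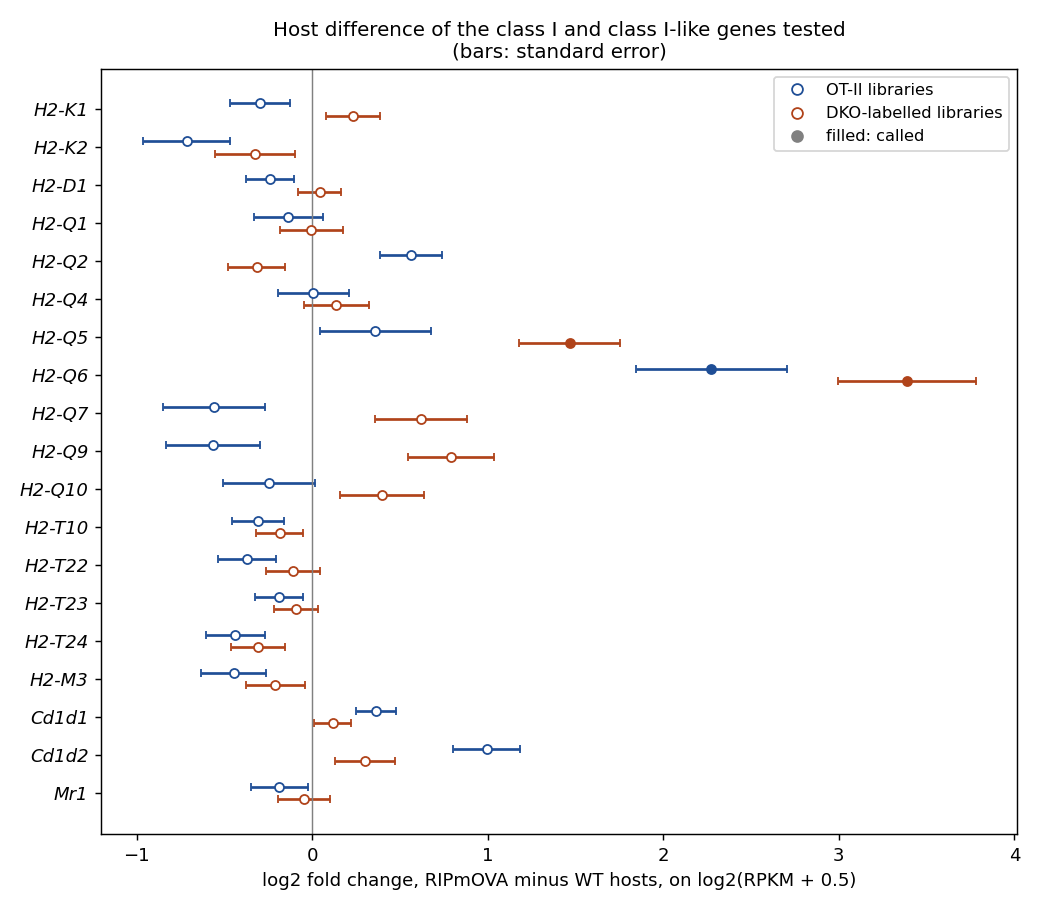
Log2 fold changes between RIPmOVA and WT hosts (x axis, on log2(RPKM + 0.5)) of 19 class I and class I-like genes; points are estimates in OT-II (blue) and DKO-labelled (red) libraries, bars are standard errors and filled points are called. H2-Q6 stands to the right of the other genes in both genotypes, and H2-Q5 is called in DKO-labelled cells at 1.47.

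The genes that make and load class I peptides had median differences close to 0. All 16 genes of this list were tested, and none was called between hosts, the median log2 fold change being 0.03 in OT-II cells and 0.10 in DKO-labelled cells. Canx (calnexin, a chaperone of the heavy chain) rose by 0.52 ± 0.11 (SE) between hosts in OT-II cells on adjusted p alone (adjusted p = 0.0466), a rule that 1.89% of all genes passed in that comparison. Between genotypes in RIPmOVA hosts, 1.07% of all genes and 1 gene of the list were called. This was Thop1, a cytosolic peptidase that trims peptides, which was higher in DKO-labelled cells by 1.06 ± 0.19 (SE, adjusted p = 0.0252). Both missed the threshold with the replicate block, at an adjusted p of 0.119 for Canx (number) and 0.0594 for Thop1 (chimera). The most abundant were Pdia3 (199 RPKM), an oxidoreductase of the loading complex, Tapbp (134 RPKM), which encodes tapasin, and the chaperone Calr (128 RPKM). Their host log2 fold changes were between -0.12 and 0.29, and none passed the test.

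Of 14 genes for factors that act on class I promoters, 12 passed the filter on low values and none was called in any comparison. Irf1 averaged 77.0 RPKM and the NF-kB subunit gene Rela 34.0 RPKM. Their host log2 fold changes were 0.08 and 0.11 in DKO-labelled cells and -0.25 and 0.01 in OT-II cells. Nfyb, a subunit of the CCAAT-binding factor, was lower in DKO-labelled than OT-II libraries of RIPmOVA hosts by -0.59 ± 0.11 (SE) on adjusted p alone (adjusted p = 0.0345), a rule that 2.21% of all genes passed in that comparison. Of 23 interferon-related genes, all were tested and none was called. The most abundant, Ifi27l2a (471 RPKM), Jak1 (151 RPKM) and Isg15 (108 RPKM), passed no test. On adjusted p alone, the receptor gene Ifnar1 rose by 0.35 ± 0.08 (SE, adjusted p = 0.0481) between hosts in DKO-labelled cells, where 3.35% of all genes passed. Socs1, an inhibitor of cytokine signalling, fell by 0.53 ± 0.11 (SE, adjusted p = 0.0494) in DKO-labelled relative to OT-II libraries of RIPmOVA hosts. With the replicate block the adjusted p was 0.0524 for Nfyb and 0.0519 for Socs1 (chimera) and 0.176 for Ifnar1 (number).

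The class II pathway, which presents extracellular peptides to CD4 T cells, was compared as the other branch of antigen presentation. Of 11 genes, 10 were tested and 2 were called between hosts in each genotype. These were Cd74 and H2-Ab1 in OT-II cells and Cd74 and H2-Oa in DKO-labelled cells. Of all genes, 1.23% and 1.68% were called in these comparisons. Cd74, the invariant chain, was 15.8 and 9.61 RPKM in OT-II WT libraries, 39.0 and 35.6 in OT-II RIPmOVA libraries, 8.13, 7.12 and 8.98 in DKO-labelled WT libraries and 30.8 and 24.2 in DKO-labelled RIPmOVA libraries. All RIPmOVA libraries were above all WT libraries. Cd74 rose by 1.56 ± 0.21 (SE, adjusted p = 0.00843) in OT-II cells and by 1.70 ± 0.20 (SE, adjusted p = 0.00233) in DKO-labelled cells. H2-Oa, a chain of the class II peptide-exchange regulator, rose by 1.05 ± 0.11 (SE, adjusted p = 0.00183) in DKO-labelled cells and by 0.83 ± 0.13 (SE, adjusted p = 0.0144) in OT-II cells, the latter on adjusted p alone. H2-Ab1, a class II beta chain, rose by 1.61 ± 0.33 (SE, adjusted p = 0.0486) in OT-II cells, but its level was 0.239 to 2.58 RPKM over all libraries. H2-Ab1 was also lower in DKO-labelled than OT-II libraries of RIPmOVA hosts, by -1.71 ± 0.33 (SE, adjusted p = 0.0360). With the replicate block, Cd74 passed in both genotypes and H2-Oa in DKO-labelled cells, while the adjusted p was 0.0588 for H2-Oa in OT-II cells and 0.113 and 0.127 for H2-Ab1 between hosts and between genotypes. Ctss (71.0 RPKM), a protease of the class II pathway, and H2-DMb2 (8.15 RPKM) passed no test.

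Markers of other cells were measured beside these results. The 8 dendritic cell and macrophage markers summed to 3.45 to 6.45 RPKM in DKO-labelled WT libraries and 6.79 and 7.58 in DKO-labelled RIPmOVA libraries, and to 4.19 and 11.5 RPKM in OT-II WT libraries and 22.14 and 11.97 in OT-II RIPmOVA libraries. The 5 B cell markers summed to 2.72 to 10.5 RPKM and the 5 thymic epithelial markers to 2.61 to 11.1 RPKM over all libraries. The NK cell markers summed to 0.138 to 1.52 RPKM and the double-positive thymocyte markers, mostly Dntt, to 18.2 to 31.0 RPKM. Among the defining markers, Itgax was 0.158 RPKM or less, Pax5 0.1 or less, Krt5 0.166 or less and Aire 0.339 or less. The epithelial sum was highest in the 2 DKO-labelled RIPmOVA libraries, mostly Epcam (10.2 and 5.78 RPKM), which rose between hosts in DKO-labelled cells by 1.47 ± 0.24 (SE, adjusted p = 0.0130). These are also the libraries with the highest sensory receptor sums. The macrophage gene Lyz2 was 18.7 and 8.44 RPKM in OT-II RIPmOVA libraries, 7.54 and 1.65 in OT-II WT libraries and 0.879 to 2.83 in the DKO-labelled libraries, and differed between genotypes in RIPmOVA hosts by -2.15 ± 0.60 (SE, adjusted p = 0.0976), where H2-Ab1 was also lower. The part of these cells in the H2-Q6, Cd74 and H2-Ab1 results was not tested. With the sensory receptor sum as a covariate, the H2-Q6 host effect was 3.35 in DKO-labelled cells (adjusted p = 0.0340) and 2.30 in OT-II cells (adjusted p = 0.0948).

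The genes most like the members' mean centred log2 level, by Pearson's r over the 9 libraries, were Abca1 (0.96), Ly6a (0.93), Ctss (0.93), Phip (0.93) and Dus2 (0.93). Ly6a, the Sca-1 antigen, was 38.1 and 20.9 RPKM in OT-II WT libraries, 23.6 and 32.7 in OT-II RIPmOVA libraries, 40.035, 22.4 and 19.3 in DKO-labelled WT libraries and 78.5 and 52.3 in DKO-labelled RIPmOVA libraries. Of the 10 members H2-Q6 had the widest range, 26.1-fold from its lowest to its highest library, so it weighs most in that mean. For H2-Q6 alone, taken up after its values were seen, the genes were 2310001H17Rik (0.98), Cst7 (0.98), Apobec3 (0.98), Xdh (0.97) and Il1r2 (0.97). Cst7, which encodes the cysteine protease inhibitor cystatin F, was 1.24 and 0.791 RPKM in OT-II WT libraries, 4.92 and 10.5 in OT-II RIPmOVA libraries, 1.54, 1.06 and 0.567 in DKO-labelled WT libraries and 10.6 and 5.75 in DKO-labelled RIPmOVA libraries. Without H2-Q6, the genes most like the mean of the other 9 members were Ifi213 (0.98), 4933412E12Rik (0.98), Gm4951 (0.96), Klf11 (0.95) and Il18bp (0.95). Gm4951 was 12.5 RPKM in OT-II WT replicate 1 and 7.95 RPKM in DKO-labelled WT replicate 1, and 1.56 to 5.80 RPKM in the other 7 libraries.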

How the data were processed

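The authors prepared cDNA from sorted cells with SMART-seq v4, made Nextera XT libraries, aligned reads to mm10 with STAR and GENCODE vM17, removed Picard-marked duplicates and counted exon reads per Entrez gene with GenomicRanges. The deposited values are RPKM, rounded to 3 decimals by the authors. STAR and Picard versions were not given in the sources used here. Depth was recovered from low RPKM values, which are multiples of 1 read (100% whole within 0.1 read). The members and gene lists were chosen with earlier results of these data known. All 10 members were named, and from each list every gene with an adjusted p of 0.05 or less in a pairwise comparison and the 3 most abundant. A listed gene is not reported here.

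Genes reaching RPKM 1 in 2 or more libraries (11569 of 24594, all 10 members included) were transformed as log2(RPKM + 0.5). Group means over the 9 libraries were fitted with limma 3.58.1 in R 4.3.3 (eBayes with intensity trend), with Benjamini-Hochberg adjustment over all genes tested. The script was tested on simulated data. Alternatives were pseudocounts of 0.1 and 1, no filter or RPKM 5, median-of-ratios or quantile scaling, the compared libraries only, no trend, adjusted p alone, a background covariate, summed class I genes, a replicate block, voom on recovered reads (chosen after seeing the data) and leaving out each library. The mouse label pairs OT-II and DKO libraries of 1 chimera (correlations of their deviations from group means 0.01 and -0.24 in WT and -0.08 in RIPmOVA hosts). Across hosts, same-numbered libraries came from different animals (correlations 0.10 to 0.23), so the block on number is given as an alternative. With 2 or 3 libraries a group, no exact test of 1 gene could pass 0.05. Coordinates are GENCODE vM21 on GRCm38, the build mm10 names. Python 3.11.15 with Biopython 1.88 was used for annotation and sequence.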

Additional observations from a re-analysis of the deposited data

How the results depend on the processing

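The member count kept its value in all 21 alternatives of the DKO-labelled host comparison and of both genotype comparisons, and in 19 of 20 of the interaction. In the OT-II host comparison it fell from 1 to 0 with no filter, with the compared libraries only, without the intensity trend, with the background covariate, with the replicate block by number and with voom, and was 0 or 1 on leaving out 1 library. H2-Q6 had adjusted p values of 0.206, 0.132, 0.0886, 0.0948, 0.0836 and 0.120 there, with log2 fold changes from 2.27 to 2.58, and summed with H2-Q7 it gave 1.26 (adjusted p = 0.177). On leaving out 1 library, the call was lost without each of the 4 OT-II and each of the 3 DKO-labelled WT libraries (adjusted p 0.0528 to 0.202) and kept without either DKO-labelled RIPmOVA library. The cause was not tested, except that fewer samples enter the compared-libraries fit and more genes enter the unfiltered one. The interaction count was 0 or 1 on leaving out 1 library, 1 being H2-Q7 without OT-II WT replicate 2. Medians over the members ranged, on leaving out 1 library, from -0.32 to 0.12 between genotypes in WT hosts and from 0.056 to 0.49 in the interaction, with OT-II WT replicates 1 and 2 at the ends. The replicate block by chimera called 0 members in either genotype comparison and, over all genes, 97 in RIPmOVA hosts, 2 in WT hosts and 0 in the interaction, and the block by number called 78 and 110 genes in the OT-II and DKO-labelled host comparisons. Its H2-Q6 value was 0.67 for RIPmOVA and -0.25 for WT hosts, and the block by number across hosts gave 3.19 for H2-Q6 in DKO-labelled cells. Of all member values, called ones included, 7 of 540 changed sign under other settings (at most 0.09 in size) and 29 of 450 on leaving out 1 library (at most 0.21). Over all genes, calls under the other settings ranged from 31 (compared libraries only) to 219 (adjusted p alone) in the OT-II host comparison, with 142 as reported. They ranged from 87 to 387 (194) in the DKO-labelled one, 20 to 256 (124) between genotypes in RIPmOVA hosts, 2 to 8 (7) in WT hosts and 0 to 8 (2) in the interaction. On leaving out 1 library they ranged from 50 to 296, 98 to 259, 21 to 217, 5 to 100 and 0 to 159, the 100 and 159 without OT-II WT replicate 2. Of the list genes, Cd74, H2-Oa and Cd69 passed on adjusted p between hosts in DKO-labelled cells in all 20 alternatives, while H2-Q5 passed in 11 of 20, Thop1 in 12 of 19, Canx in 6 of 20, and H2-Ab1 in 6 of 19 between hosts and 10 of 19 between genotypes. H2-Q6 (92 to 1964 reads) and H2-Q7 (116 to 315 reads) are the members that depth limits most.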
